A study of Homo sapiens with 2 samples.

Results

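The genes described here are 48 genes of mitosis and the G2/M transition, among the 60616 genes listed in the deposited tables of an RNA-seq experiment on HSC-3 cells. They were chosen by symbol, as mitotic cyclins, kinases, kinesins, kinetochore and cytokinesis genes. HSC-3 is an established human tongue squamous carcinoma line. 1 library was made from HSC-3 cells given the vehicle, DMSO at 0.1%, and 1 from HSC-3 cells given 1 µM FIN56 for 48 h, a time that the labels give for the FIN56 library only. FIN56 is a ferroptosis inducer, a compound that can kill cells by way of oxidised membrane lipids. The study describes the concentration given to these cells as sublethal. The expected counts, which are read counts estimated per gene, came to 70184517 with DMSO and 73062209 with FIN56. With 1 library per condition, no difference given here has a replicate check, and no test between the conditions was made.

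A cell enters mitosis when CDK1, bound to cyclin B and freed of inhibitory phosphates by CDC25 phosphatases, becomes active. Kinases of the Polo, Aurora and NEK families, kinesin motors and kinetochore proteins then build the spindle, the spindle checkpoint holds back the anaphase-promoting complex until chromosomes are attached, and cytokinesis divides the cell. Many of these genes are transcribed late in the cell cycle under the MuvB complex, B-MYB and FOXM1, through a promoter element called the cell cycle genes homology region (CHR), often together with CCAAT boxes bound by NF-Y. Dividing carcinoma cells carry these transcripts in abundance.

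The libraries were checked against cell type markers. All 10 squamous epithelial markers were present, with summed FPKM (fragments counted relative to effective gene length and to library depth) of 5660 with DMSO and 5177 with FIN56. The most abundant was the basal keratin KRT5, at 2078 and 1647 FPKM, while 6 of the 10 had more FPKM in the FIN56 library. Of 6 fibroblast markers, COL1A2 and COL3A1 were listed at 0 FPKM in both libraries, and the most abundant, COL1A1, was at 4.25 FPKM with DMSO and 2.19 with FIN56, in a summed level of 5.10 and 2.92. Among the leukocyte markers, PTPRC and CD3E were listed at 0 in both libraries. The leukocyte sum of 61.1 FPKM with DMSO and 30.1 with FIN56 was mostly CD68, a lysosomal protein, at 57.3 and 24.6 FPKM, and CD14 was at 3.62 and 5.15. The 4 endothelial markers summed to 0.08 FPKM in each library, with VWF the most abundant and PECAM1 and KDR at 0.

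Promoter sequences are shown because almost all members lay on the same side of 1, as described further on. RefSeq promoter windows on GRCh38.p14, each holding 250 bases before and 50 bases after a transcription start, were found for 41 of the 48 genes, in 52 windows. AURKA, BIRC5, BUB3, FOXM1, TPX2, TTK and UBE2C had no entry. The motifs searched on both strands were the CHR element TTTGAA, its variant TTCGAA, and CCAAT. Other letter forms of the CHR were not searched, so a gene without a match here may hold such a form. The stretches below end at the base before the transcription start, or up to 20 bases earlier where GENCODE release 44 begins the gene further upstream. None overlaps a GENCODE exon, and the 8 genes shown were chosen after their values and matches were seen. Capitals mark the matches, and positions are counted back from the start, with -1 the base before it.

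The 4 stretches that follow belong to genes whose FPKM ratio passed 1/1.5, though that of cyclin B2 passed on the FPKM scale only, the DNA topoisomerase TOP2A (chr17:40417897-40418096, minus strand), cyclin B1 (chr5:69166950-69167134, plus strand), the anaphase activator CDC20 (chr1:43358781-43358980, plus strand) and cyclin B2 (chr15:59104946-59105125, plus strand). CCNB2 had 3 evenly spaced CCAAT boxes at -120, -87 and -54 and a CHR at -29, whereas CCNB1 had CCAAT at -87 and -55 and no CHR match in its window.
TOP2A: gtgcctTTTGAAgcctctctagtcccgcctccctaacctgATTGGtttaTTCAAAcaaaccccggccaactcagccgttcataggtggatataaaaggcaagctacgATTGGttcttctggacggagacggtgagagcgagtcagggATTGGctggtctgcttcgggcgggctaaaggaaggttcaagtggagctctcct
CCNB1: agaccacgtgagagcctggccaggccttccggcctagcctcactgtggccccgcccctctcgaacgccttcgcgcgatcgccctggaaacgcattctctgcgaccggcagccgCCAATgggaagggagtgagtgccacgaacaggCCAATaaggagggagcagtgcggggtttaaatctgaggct
CDC20: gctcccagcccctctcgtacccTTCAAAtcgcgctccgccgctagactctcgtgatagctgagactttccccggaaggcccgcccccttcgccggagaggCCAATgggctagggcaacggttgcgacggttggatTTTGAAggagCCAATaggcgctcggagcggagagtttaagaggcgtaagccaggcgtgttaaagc
CCNB2: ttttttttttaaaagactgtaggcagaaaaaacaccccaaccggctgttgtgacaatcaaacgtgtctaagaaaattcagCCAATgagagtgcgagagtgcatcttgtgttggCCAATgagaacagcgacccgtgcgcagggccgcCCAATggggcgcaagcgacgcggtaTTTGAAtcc

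The next 4 belong to genes whose FPKM ratio did not pass it, cyclin A2 (chr4:121823884-121824083, minus strand), the proliferation antigen MKI67 (chr10:128126424-128126623, minus strand), the kinetochore gene CENPF (chr1:214602995-214603184, plus strand) and CDK1 (chr10:60778131-60778330, plus strand, the upstream of its 2 windows). MKI67 had CHR matches at -47 and -29, the latter sharing a base with a CCAAT match at -24, and CDK1 had a CHR at -161 beside a CCAAT at -150. The other window of CDK1, which is not shown, held 3 CHR and 2 CCAAT matches. Beyond the stretch shown, the window of CENPF held a CCAAT match at 13 and a CHR match at 41, counted forward from the start.
CCNA2: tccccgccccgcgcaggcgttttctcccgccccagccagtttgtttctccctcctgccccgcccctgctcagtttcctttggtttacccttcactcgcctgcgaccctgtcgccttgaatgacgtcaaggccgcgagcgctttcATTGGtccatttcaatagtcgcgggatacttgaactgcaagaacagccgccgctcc
MKI67: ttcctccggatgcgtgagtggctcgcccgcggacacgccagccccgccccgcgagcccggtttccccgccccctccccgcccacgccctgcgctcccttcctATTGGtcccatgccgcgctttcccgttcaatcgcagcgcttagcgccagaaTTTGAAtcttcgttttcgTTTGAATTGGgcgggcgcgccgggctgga
CENPF: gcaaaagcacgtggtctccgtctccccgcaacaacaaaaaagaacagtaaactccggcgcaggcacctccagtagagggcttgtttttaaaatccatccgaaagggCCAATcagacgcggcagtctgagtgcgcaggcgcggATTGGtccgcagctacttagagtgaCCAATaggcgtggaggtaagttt
CDK1: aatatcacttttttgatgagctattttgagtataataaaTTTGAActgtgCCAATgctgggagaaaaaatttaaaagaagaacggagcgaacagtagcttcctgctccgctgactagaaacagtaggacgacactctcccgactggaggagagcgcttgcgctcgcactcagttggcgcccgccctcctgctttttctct

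A CHR or its variant was found in at least 1 window of 29 of the 41 genes (70.7%), against 19.5% of the 27305 genes in the promoter table. CCAAT was found in 33 (80.5%, against 39.7%), 2 or more CCAAT matches in 22 (53.7%, against 12.9%), and a CHR or variant with 2 or more CCAAT matches in the same window in 17 (41.5%, against 2.35%). The matches were also counted by position. A CHR or variant beginning in the 50 bases before the start, a stretch chosen after the positions were seen, was found in 17 of the 41 genes (41.5%) and in 3.43% of all genes of the table. CCAAT began from -75 to -51, the bin with most matches and likewise chosen after the positions were seen, in 44.2% of the 52 windows of members and in 7.62% of all 35116 windows, which was the fullest CCAAT bin of all windows too. The CHR or its variant was at least as frequent in some lists of other mitosis genes. A CHR or its variant was found in 23 of 27 further spindle, motor and cytokinesis genes (85.2%), with 2 or more CCAAT matches in the same window in 13 (48.1%), and in 7 of 8 genes of condensin and separase (87.5%), with lower shares than the members in the 6 further lists of mitosis genes, the lowest 31.2%. In the DNA replication and S phase genes used for comparison, 3 of 35 (8.57%) had a CHR or its variant and 21 (60.0%) had CCAAT. Matches are described by their letters alone, and binding was not measured.

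**Figure D1:**
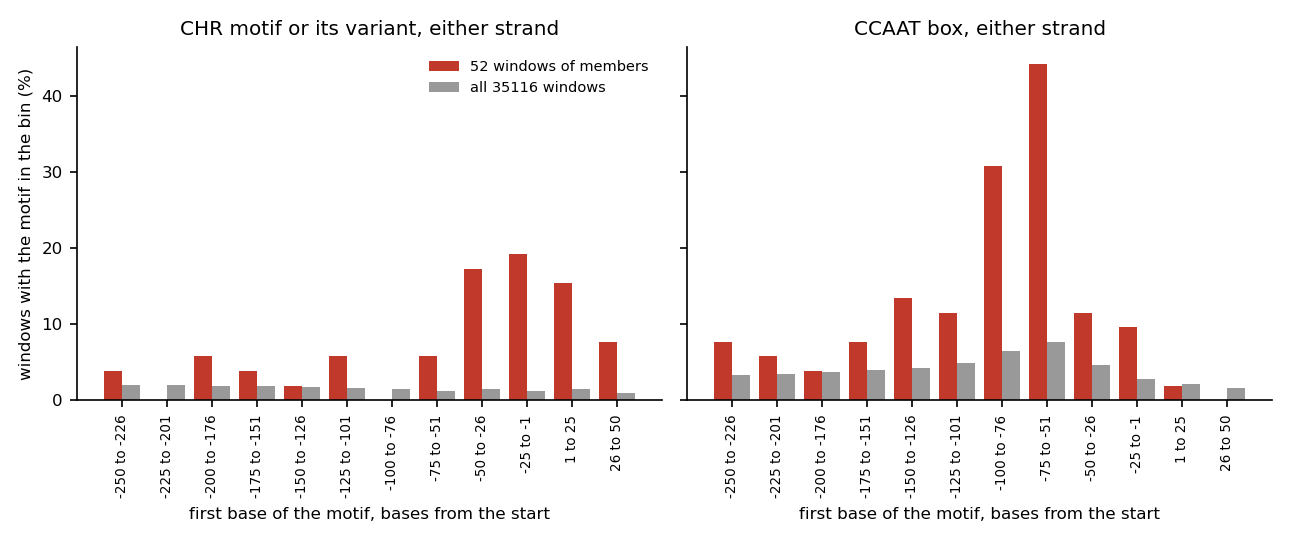
Share of promoter windows (%) with a CHR motif or its variant (left) or a CCAAT box (right) beginning in each 25-base bin, by distance from the transcription start in bases, for 52 windows of mitosis and G2/M genes (red) and all 35116 windows of the table (grey). Matches of the CHR or variant in these genes were most frequent from -50 to 25, and CCAAT matches from -100 to -51.

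All 48 genes had an FPKM above 0 in both libraries. Each ratio sets FIN56 over DMSO on the FPKM scale unless called a count ratio, with 1.5 or 1/1.5 as the threshold. Of the 48 genes, 14 were lower at 1/1.5 or less (29.2%), against 17.3% of the 24454 genes above 0 in both libraries, and 0 were higher at 1.5 or more, against 14.7%. The wider set includes many genes with few reads, whose ratios scatter widely. The member with the fewest reads had 2128 expected counts over both libraries. Among the 8822 genes with at least 2000 such counts, 4.26% were lower and 2.49% were higher. The median FPKM ratio of the members was 0.752 (median log2 ratio -0.41, quartiles -0.61 and -0.23), beside a median of 1.00 over all genes tested and 1.03 over the genes with at least 2000 counts. In bulk RNA, fewer cells in G2 and mitosis and less of these transcripts per cell cannot be told apart.

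In total 47 of the 48 had an FPKM ratio below 1, against 43.0% of the genes with at least 2000 counts, and 44 to 47 did so over the other scalings. A 95% counting interval of the count ratio, scaled by library totals, lay wholly below 1 for 44, against 37.0% of those genes. It lay above 1 for BUB3 and ANLN and held 1 for MAD2L1 and INCENP. These intervals cover counting error only, with no term for variation between replicates, and they compare the 2 libraries and not the conditions. PCR copies were not marked by molecular identifiers, so the intervals may be too narrow even for counting error. The sum of FPKM over the 48 genes was 3001 with DMSO and 2256 with FIN56. Among the members the FPKM ratio did not follow the level, with a Spearman correlation of 0.0772 between log2 FPKM in the DMSO library and log2 ratio across the 48 genes, which share both libraries and are not independent. At the threshold, CCNB2 lay just inside with a ratio of 0.664, and the spindle pole gene ASPM just outside with 0.668. Of the 14, CCNB2 passed on the FPKM scale only, BUB1B did not pass on any scaling of counts, KIF2C did not pass with TPM, and none passed with rlog values, a variance-stabilised log2 scale.

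**Figure D2:**
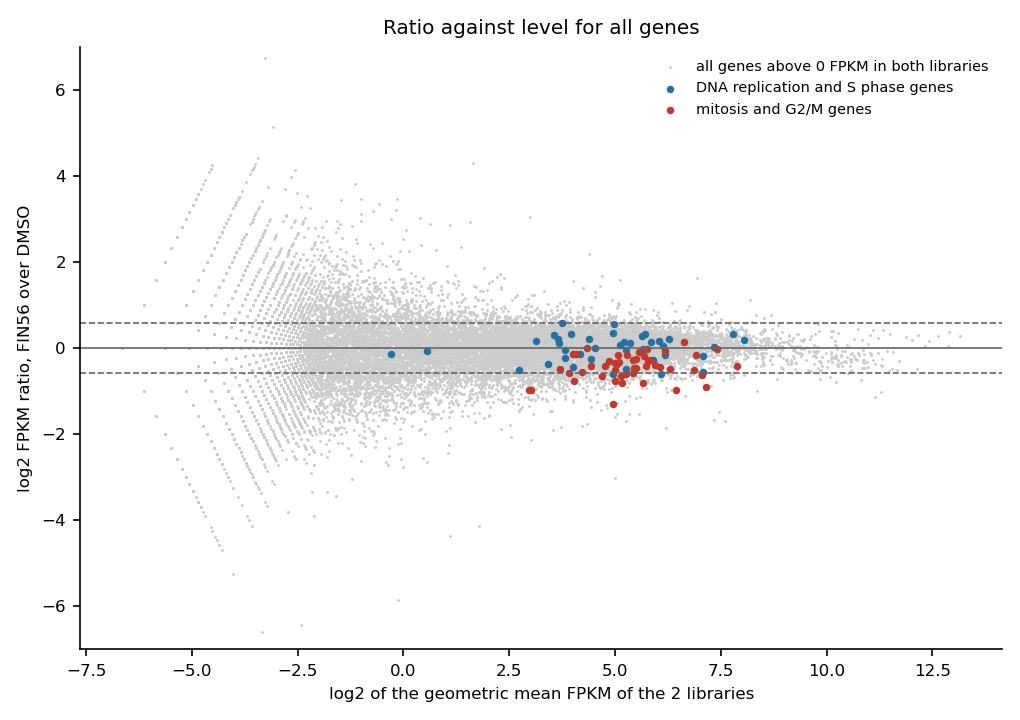
Log2 FPKM ratio (FIN56 over DMSO) against log2 geometric mean FPKM for 24454 genes (grey), with 48 mitosis and G2/M genes (red) and 40 DNA replication and S phase genes (blue), and dashed lines at the 1.5-fold thresholds. Of the red points 47 lie below 0 and 14 at or below the lower line.

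The engine of mitotic entry comprises CCNA2, CCNB1, CCNB2, CDK1, CDC25B and CDC25C, of which 3 were lower at the threshold. CCNB1, the cyclin that activates CDK1 at mitotic entry, had 196.4 FPKM with DMSO and 104.4 with FIN56, a ratio of 0.531 with a count ratio of 0.522 (interval 0.509 to 0.535). It was the second most abundant member in the DMSO library by FPKM, yet its ratio was close to that of the scarce CDC25C. CDC25C, a phosphatase that activates CDK1, went from 10.98 to 5.55 FPKM, a ratio of 0.505 with a count ratio of 0.510 (0.466 to 0.558). The catalytic partner differed far less from vehicle than its cyclin. CDK1 had 127.7 FPKM with DMSO and 113.8 with FIN56, a ratio of 0.892 with a count ratio of 0.895 (0.875 to 0.916). CDC25B, the related phosphatase that acts earlier at centrosomes, had 74.2 and 70.7 FPKM, a ratio of 0.954 with a count ratio of 0.942 (0.920 to 0.964). The 2 CDC25 genes therefore had the lowest and the highest FPKM ratio of this group. Cyclin B2 (ratio 0.664) and cyclin A2 (0.730), the latter active from S phase onward, lay between.

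The 3 mitotic kinases of the centrosome and spindle were lower in order AURKA, PLK1, NEK2. AURKA, which drives centrosome maturation, had 67.1 FPKM with DMSO and 38.1 with FIN56, a ratio of 0.567 with a count ratio of 0.585 (0.565 to 0.606). PLK1, which acts from mitotic entry to cytokinesis, had 43.97 and 27.9 FPKM, a ratio of 0.635 with a count ratio of 0.597 (0.572 to 0.622). Both passed the threshold. NEK2, which separates centrosomes, had 32.1 and 26.2 FPKM, a ratio of 0.817 with a count ratio of 0.823 (0.786 to 0.861). TPX2, the spindle factor that binds and activates AURKA, had a ratio of 0.739, nearer to that of NEK2 than to that of its kinase.

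**Figure D3:**
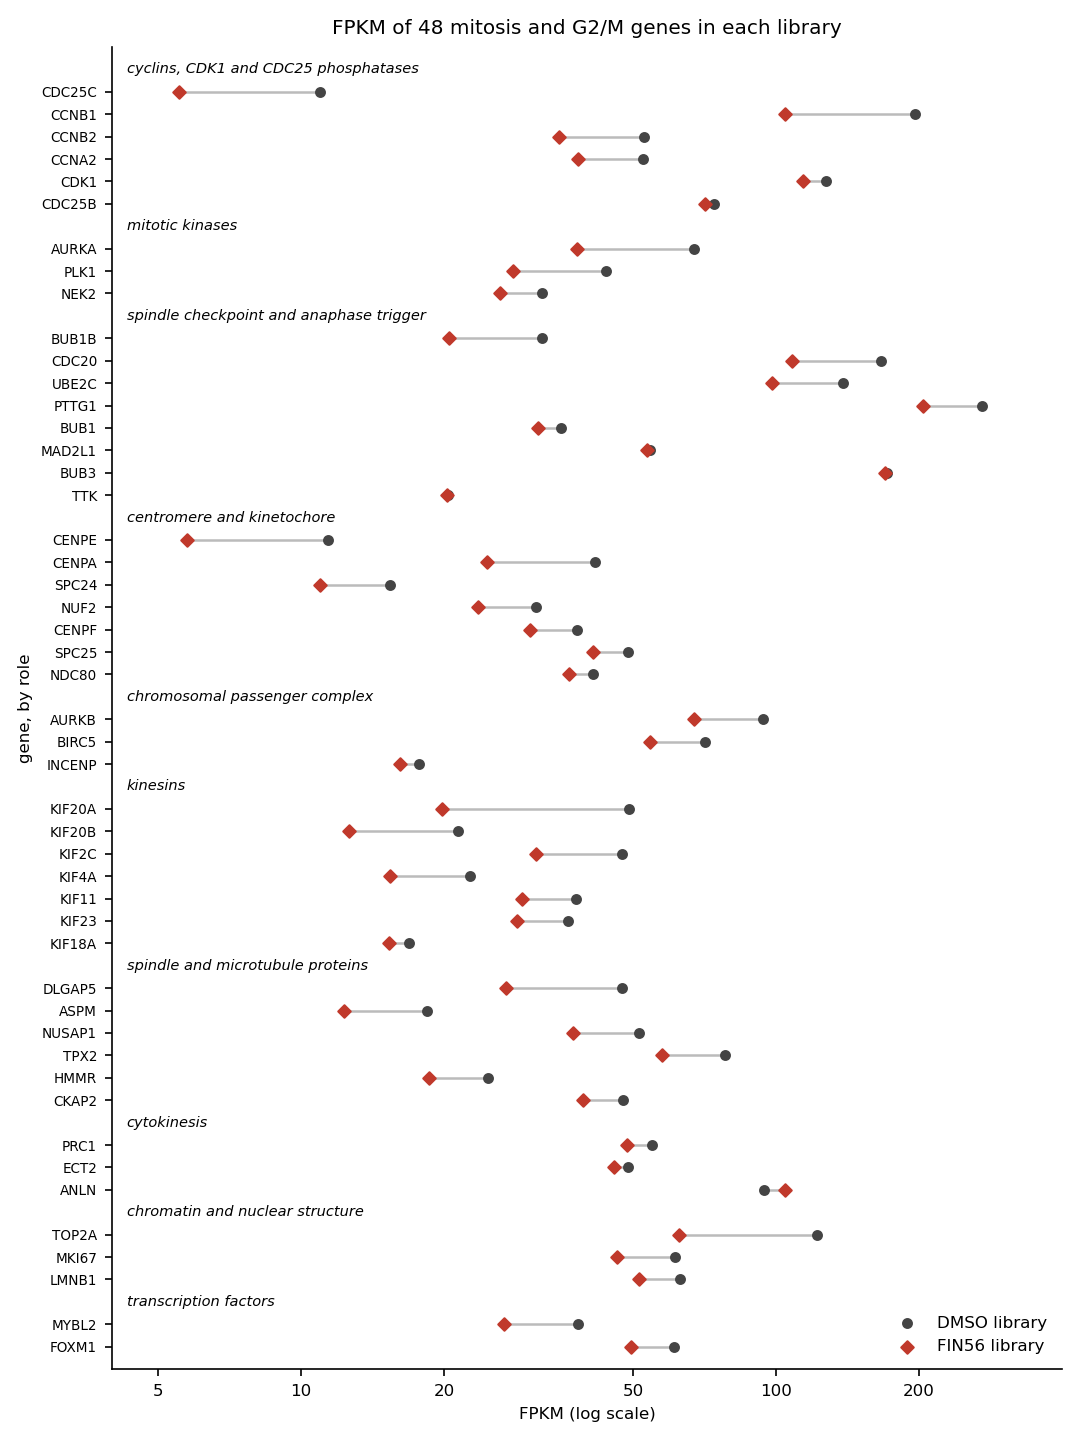
FPKM (log scale) of the 48 genes in the DMSO library (grey circles) and the FIN56 library (red diamonds), grouped by role and ordered by ratio, with 1 library per condition. The FIN56 value lies to the left of the DMSO value for every gene but ANLN, on this scale, INCENP, BUB3, TTK and MAD2L1 changing side on other scales, and the gap runs from 48.9 against 19.8 FPKM for KIF20A to nearly none for TTK, BUB3 and MAD2L1.

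The spindle checkpoint and the anaphase trigger gave a divided picture. The checkpoint genes BUB3, TTK and MAD2L1 differed little between the libraries. BUB3, which carries BUB1 and BUBR1 to kinetochores, had 171.0 FPKM with DMSO and 169.3 with FIN56, a ratio of 0.990 with a count ratio of 1.04 (1.02 to 1.06). TTK, the kinase that starts checkpoint signalling, had 20.4 and 20.3 FPKM, a ratio of 0.996 with a count ratio of 0.949 (0.908 to 0.992). MAD2L1, the inhibitor that captures CDC20, had 54.2 and 53.5 FPKM, a ratio of 0.986 with a count ratio of 1.02 (0.986 to 1.06). The direction of these 3 genes changes with the scale, and only their closeness to 1 is common to the scales. BUB1B, which encodes the checkpoint protein BUBR1, had the lowest FPKM ratio of the group, 0.638, from 32.2 to 20.5 FPKM, and a count ratio of 0.674 (0.650 to 0.700). By counts CDC20 was lower, at 0.647. BUB1 had a ratio of 0.896.

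On the side of anaphase, CDC20, which activates the anaphase-promoting complex and is the target of the checkpoint, passed the threshold with a ratio of 0.649, from 166.4 FPKM with DMSO to 108.0 with FIN56. UBE2C, the ubiquitin-conjugating enzyme that works with this complex, had a ratio of 0.707. PTTG1, or securin, which holds separase inactive until anaphase, was the most abundant member by FPKM, at 272.0 with DMSO and 204.4 with FIN56, a ratio of 0.751 with a count ratio of 0.753 (0.733 to 0.774). In these libraries the target of the checkpoint was thus further from vehicle than the MAD2 protein gene that inhibits it.

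At the centromere and kinetochore, 2 of 7 genes were lower at the threshold. CENPE, a kinesin that moves chromosomes to the spindle equator, had 11.4 FPKM with DMSO and 5.77 with FIN56, a ratio of 0.506 with a count ratio of 0.507 (0.485 to 0.530). CENPA, the histone H3 variant that marks centromeres, had a ratio of 0.591. The 4 subunits of the NDC80 complex, which binds microtubules, spanned 0.712 for SPC24, 0.754 for NUF2, 0.842 for SPC25 and 0.888 for NDC80. NDC80 had the highest FPKM ratio of the group, from 41.2 FPKM with DMSO to 36.6 with FIN56, with a count ratio of 0.821 (0.789 to 0.854), below the 0.866 of SPC25. CENPF, a large protein of the outer kinetochore, had an FPKM ratio of 0.798 and a lower count ratio of 0.709.

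None of the 3 genes of the chromosomal passenger complex, which corrects attachments and marks the cleavage plane, passed the threshold. Its kinase AURKB had 93.7 FPKM with DMSO and 67.2 with FIN56, a ratio of 0.717 with a count ratio of 0.677 (0.652 to 0.703). BIRC5, or survivin, had a ratio of 0.764. INCENP, the scaffold, had 17.8 and 16.2 FPKM, a ratio of 0.910 with a count ratio of 0.984 (0.940 to 1.03). The kinase was lower than its scaffold on either scale, and the direction of INCENP changes with DESeq2 size factors and with rlog values.

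Of the 7 kinesins 3 passed the threshold, and 1 of them was the lowest member of all. KIF20A, which carries the passenger complex to the spindle midzone for cytokinesis, had 48.9 FPKM with DMSO and 19.8 with FIN56, a ratio of 0.405 with a count ratio of 0.387 (0.373 to 0.402), from 9920 and 4000 expected counts. It was also the only member lower by more than 2-fold on the FPKM scale. KIF20B, a related motor of the midzone, had a ratio of 0.588, and KIF2C, which depolymerises microtubules at centromeres, 0.659. The chromosome-arm motor KIF4A (0.678), the spindle-separating motor KIF11 (0.769) and the centralspindlin motor KIF23 (0.783) were nearer to 1. KIF18A, which damps chromosome movements at the spindle equator, was the highest, at 16.9 and 15.4 FPKM, a ratio of 0.907 with a count ratio of 0.904 (0.864 to 0.947).

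The spindle and microtubule proteins ranged from 0.570 to 0.823. DLGAP5, which stabilises kinetochore fibres, had the lowest FPKM ratio, with 47.5 FPKM under DMSO and 27.1 under FIN56, and a count ratio of 0.567 (0.548 to 0.587). ASPM (FPKM ratio 0.668), NUSAP1 (0.726) and HMMR (0.752) followed, with TPX2 among them. CKAP2 was the highest, at 47.7 and 39.2 FPKM, a ratio of 0.823 with a count ratio of 0.788 (0.765 to 0.811). Only DLGAP5 passed the threshold on the FPKM scale, although ASPM had a count ratio of 0.564 and would pass by counts.

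The 3 cytokinesis genes had the highest median FPKM ratio of any role group, at 0.935. ANLN, which encodes the actin-binding scaffold anillin of the contractile ring, was the only member above 1, with 94.4 FPKM under DMSO and 104.6 under FIN56, a ratio of 1.11 with a count ratio of 1.02 (1.0002 to 1.04). It was above 1 on each of the 7 scales computed. ECT2, the exchange factor that activates RhoA at the cleavage plane, had a ratio of 0.935. PRC1, which bundles midzone microtubules, had 54.8 and 48.6 FPKM, a ratio of 0.886, while its count ratio was 0.716 (0.693 to 0.739). FPKM is divided by an effective length estimated in each library, and whether that length differed for PRC1 was not tested.

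In the group of chromatin and nuclear structure, TOP2A, which untangles sister chromatids, had 122.1 FPKM with DMSO and 62.5 with FIN56, a ratio of 0.512 with a count ratio of 0.523 (0.515 to 0.531). MKI67, which coats mitotic chromosomes and is the usual marker of proliferation, had 61.4 and 46.2 FPKM, a ratio of 0.753 with a count ratio of 0.759 (0.749 to 0.769). The lamin gene LMNB1 had 62.9 and 51.5 FPKM, a ratio of 0.820 with a count ratio of 0.809 (0.787 to 0.832). TOP2A was thus much further from vehicle than MKI67, whose ratio was close to the median of the members.

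The transcription factors that activate late cell cycle genes did not pass the threshold. MYBL2, or B-MYB, had 38.3 FPKM with DMSO and 26.8 with FIN56, a ratio of 0.700 with a count ratio of 0.700 (0.675 to 0.726). FOXM1 had 61.0 and 49.5 FPKM, a ratio of 0.812 with a count ratio of 0.831 (0.810 to 0.853). Both had higher ratios than CCNB1 and PLK1, which are among the lowest members. The ratio of MYBL2 was below those of CCNA2 (0.730) and CDK1 (0.892) and below the member median of 0.752, while that of FOXM1 was above the median.

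**Figure D4:**
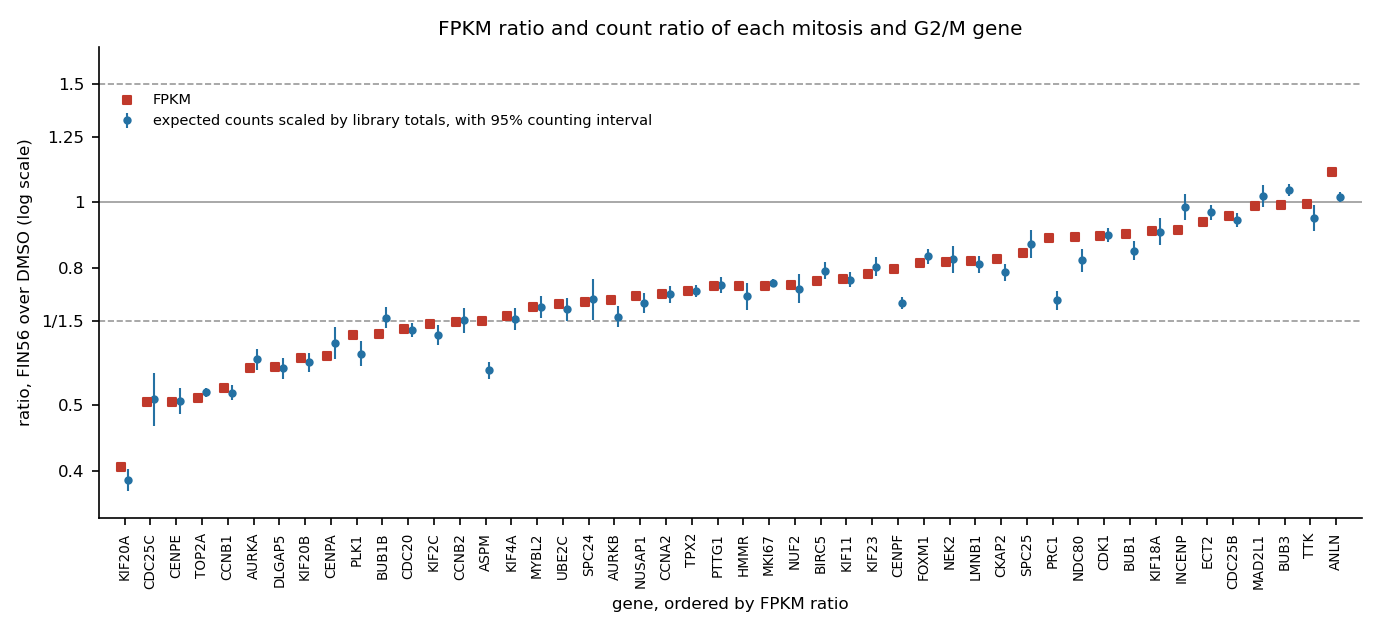
FPKM ratio (red squares) and count ratio with its exact 95% counting interval (blue) of each of the 48 genes, FIN56 over DMSO on a log scale, ordered by FPKM ratio, with lines at 1, 1/1.5 and 1.5. The scales part most for PRC1 (0.886 and 0.716) and ASPM (0.668 and 0.564), and only genes at the right end reach 1.

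Within the members, the ratios were also set beside the motifs. The median FPKM ratio was 0.726 for the 17 genes with a CHR or variant and 2 or more CCAAT matches in a window. It was 0.679 for the 4 genes with no match to the letters searched. A CHR or variant was found in 9 of the 13 members lower at the threshold that had a window (69.2%) and in 20 of the other 28 (71.4%). For 2 or more CCAAT matches the counts were 9 of 13 (69.2%) and 13 of 28 (46.4%), and for the CHR or variant with 2 or more CCAAT matches 7 of 13 (53.8%) and 10 of 28 (35.7%). Outside the members and the gene lists, 147 genes with at least 2000 counts had a CHR or variant with 2 or more CCAAT matches. Their median ratio was 1.02, and 6 of them were lower at the threshold (4.08%), near the 4.26% of all genes with that many counts. Matches anywhere in a window were counted, and whether the motifs bear on the ratio was not tested. The lowest of the 147 was PRR11, with 42.8 FPKM under DMSO and 21.1 under FIN56.

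The other mitosis genes differed by list, with medians below 1 in 5 lists by FPKM and above 1 in 3. Of all genes above 0 in both libraries 17.3% were lower at the threshold, and of those with at least 2000 counts 4.26%. Of 33 further spindle, motor and cytokinesis genes, a list that also holds some other late cell cycle genes, 11 were lower (33.3%). Their median ratio was 0.766, close to that of the members. PIF1 had the lowest ratio, 0.419 (7.92 FPKM with DMSO and 3.32 with FIN56), and TROAP the highest, 1.36 (40.8 and 55.4 FPKM), though the count ratio of TROAP was 0.950. Condensin and separase had a median of 0.789 over 9 genes, from ESPL1, or separase, at 0.603 (17.96 and 10.8 FPKM) to NCAPH2 at 1.21 (19.0 and 23.0 FPKM). ESPL1 and its inhibitor PTTG1 were thus both below 1. NCAPG, named after its value was seen, also passed the threshold with a ratio of 0.655.

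The other parts of the mitotic machinery lay closer to 1. The 30 further kinetochore and centromere genes had a median of 0.914, from OIP5, which helps to load CENPA, at 0.565 (16.9 and 9.53 FPKM) to SKA1 at 1.29 (5.71 and 7.38 FPKM). 2 of them (6.67%), OIP5 and CENPM, the latter named after its value was seen, were lower at the threshold. The 16 subunits and partners of the anaphase-promoting complex had a median of 0.929, from ANAPC15, which promotes release from the checkpoint, at 0.462 (148.8 and 68.7 FPKM) to ANAPC10 at 1.18 (14.6 and 17.2 FPKM), and ANAPC15 was the only one past the threshold. Centrosome duplication genes had a median of 0.990 over 11 genes, from CEP152 at 0.709 (4.05 and 2.87 FPKM) to NEDD1 at 1.18 (19.6 and 23.1 FPKM), and the side of 1 on which this median fell changed with the scaling.

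Cohesin and its regulators had a median of 1.05, with 0 of 12 past the threshold, from SGO2 at 0.853 (8.78 and 7.49 FPKM) to CDCA5, or sororin, at 1.41 (77.9 and 110.2 FPKM). A list of genes that control mitotic entry and exit, which holds WEE kinases, checkpoint kinases and PP2A-B55 regulators along with the activator CDC25A, had a median of 1.14 over 12 genes, from the phosphatase regulator ENSA at 0.654 (274.7 and 179.6 FPKM) to PPP2R2D at 1.45 (34.3 and 49.8 FPKM). A list of DREAM and MuvB subunits together with the 3 NF-Y subunits had a median of 1.05 over 14 genes, from RBL2 at 0.664 (13.4 and 8.93 FPKM) to RBBP4 at 1.53 (73.2 and 112.0 FPKM), the only gene of the 8 lists higher at 1.5 or more by FPKM, with a count ratio of 1.43 (1.39 to 1.47) that did not pass. Over the 8 lists of other mitosis genes together, 18 of 137 were lower (13.1%), 14 with TPM and 20 with expected counts scaled by library totals. The share by FPKM was 17.3% over all genes above 0 in both libraries and 4.26% over those with at least 2000 counts. The median ratio of the 137 was 0.926, beside 0.752 for the members.

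The neighbouring phases of the cycle had medians close to 1. Of 40 DNA replication and S phase genes, 2 were lower at the threshold and 1 was higher. Among genes with at least 2000 counts 4.26% were lower and 2.49% higher. Of the 40, 19 had a ratio below 1, and their median was 1.03, above 1 on each of the 7 scales. The lowest was the thymidylate synthase gene TYMS at 0.660 (83.2 and 54.9 FPKM) and the highest cyclin E2, CCNE2, at 1.51 (11.02 and 16.6 FPKM). RFC2, named after its value was seen, was the other lower gene, at 0.662. The count of lower S phase genes was 0 with TPM and 5 with expected counts scaled by library totals. Their summed FPKM was 2048 with DMSO and 2065 with FIN56, while that of the members went from 3001 to 2256. Of 14 CDK inhibitors, G1 cyclins, their kinases and RB1, the median ratio was 0.974, with the lowest CDKN2C at 0.632 (8.72 and 5.51 FPKM) and the highest cyclin D2, CCND2, at 1.73 (31.1 and 53.8 FPKM). The D-type cyclin CCND1, named after its value was seen, was the other gene past 1.5, with 246.6 FPKM with DMSO and 418.7 with FIN56. CCND3, also named after its value was seen, had a ratio of 1.40. Of these 14 genes 8 had a ratio below 1, while their summed FPKM was 687 with DMSO and 885 with FIN56. In the 2 libraries, the genes of G2 and mitosis thus lay mostly below 1 while those of S phase were divided about it. No test of that difference was possible.

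**Figure D5:**
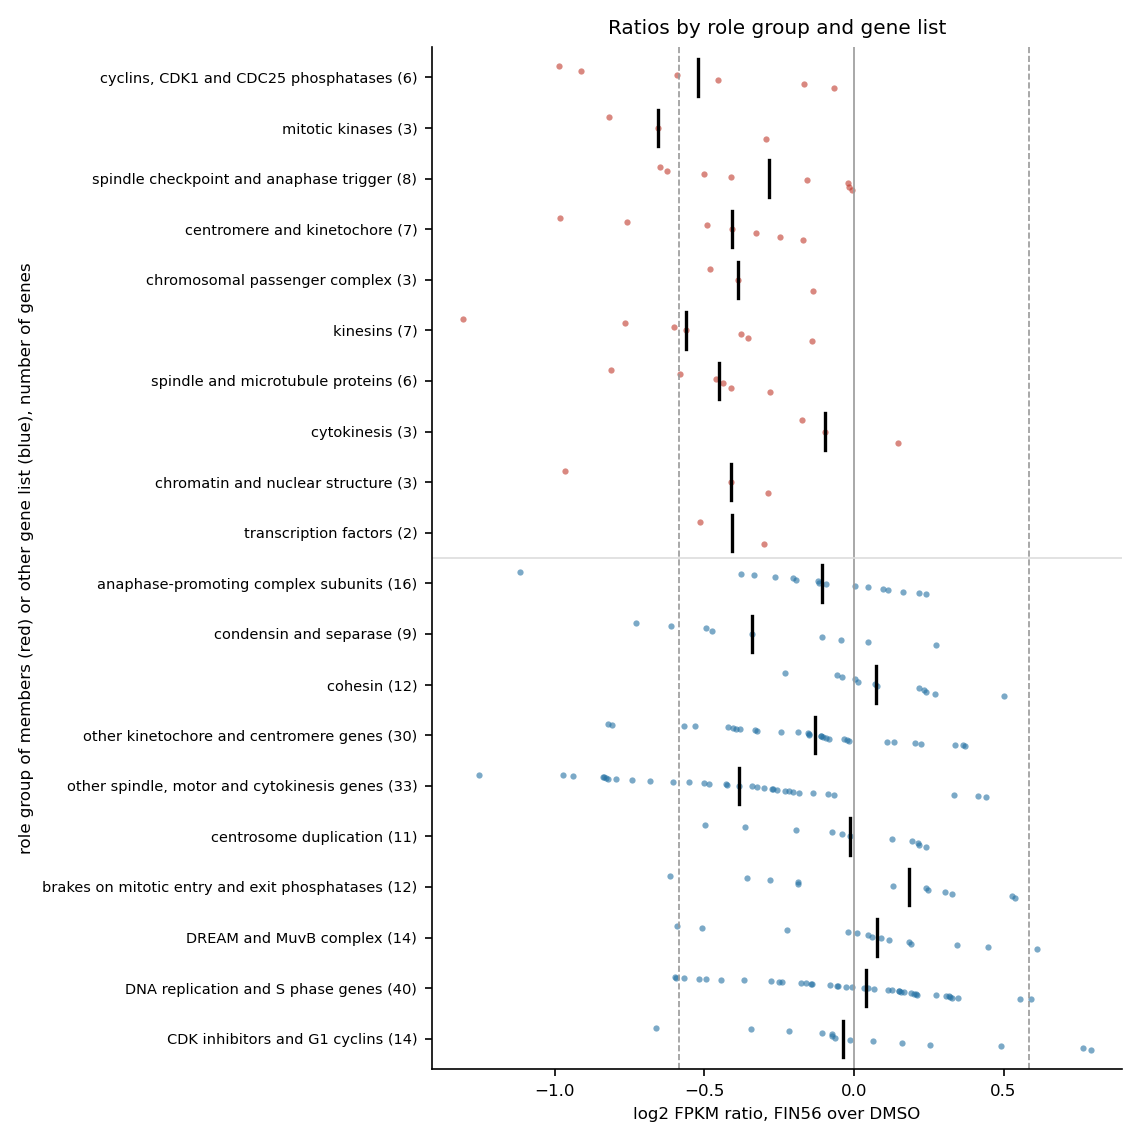
Log2 FPKM ratio (FIN56 over DMSO) of each gene in the 10 role groups of members (red) and 10 other gene lists (blue), with black bars at the medians, the number of genes in brackets, dashed lines at the 1.5-fold thresholds and vertical spread for legibility only. The medians of all 10 role groups lie below 0, and those of cohesin, DREAM and MuvB (NF-Y included), the mitotic brakes and exit genes (CDC25A included) and the S phase genes lie above 0.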

How the data were processed

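RNA of HSC-3 cells, 1 library with DMSO and 1 with FIN56, was sequenced from a stranded mRNA kit. The study's methods describe tumor libraries and are taken to hold here, with tool versions from the submitters' processing notes. The authors aligned reads with STAR 2.6.1a to GRCh38 (Ensembl release 94) after FastQC 0.11.7, and RSEM 1.3.1 gave the deposited expected counts, without normalization and with fractions where reads are shared. The FPKM and TPM values deposited by the authors are divided by effective gene length, and the deposited rlog values are log2 values made by the authors with DESeq2 1.26.0.

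Members and lists were chosen with earlier results of these data known. The main measure was the ratio of deposited FPKM, FIN56 over DMSO, in genes above 0 in both libraries, with a threshold of 1.5. Expected counts, whole for 33 of the 48 members, were rounded and scaled by library totals, edgeR 4.0.16 TMM or DESeq2 1.42.0 size factors, with exact Clopper-Pearson 95% intervals. The other alternatives were TPM, rlog values, a pseudocount of 1 FPKM, minimum values of 1 FPKM in both libraries or 100 counts together, and thresholds of 1.25 and 2. Values were given for the 5 members with the lowest and the 5 with the highest FPKM ratio, the 3 most abundant in DMSO by FPKM, the lowest and highest of each role group, CCNB1, CDK1, PLK1, AURKA, FOXM1, MKI67 and TOP2A, and the extremes of each other list among genes with at least 100 counts. The value of 1 leukocyte marker is not reported. Promoter windows came from RefSeq on GRCh38.p14 and gene models from GENCODE release 44. Overlapping matches were each counted, and a gene held a motif where at least 1 window did, a rule that replaced the use of the first listed window after the data were seen. Python 3.11.15, numpy 2.4.6, scipy 1.17.1, pandas 2.3.3, matplotlib 3.10.9 and R 4.3.3 were used, and the steps were tested on simulated data.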

Additional observations from a re-analysis of the deposited data

How the results depend on the processing

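No paired analysis was possible because there was only 1 library per condition, and for the same reason no replicate could be left out. The count of members lower at the threshold was 14, and it was 12 with TPM and 13 with a pseudocount or with expected counts scaled by library totals, edgeR TMM or DESeq2 size factors. 11 members passed under FPKM, TPM and these 3 scalings of counts alike, and 15 under at least 1 of them. It was 0 with rlog values, which shrink differences between 2 libraries, 31 at the smaller threshold and 1 at a threshold of 2. Among members with whole expected counts, an alternative chosen after seeing the data, it was 8. No alternative made any member higher at the threshold. The median log2 ratio of the members, -0.41 by FPKM, was -0.38 with TPM and -0.17 with rlog values, and from -0.46 to -0.41 under the others. Over the 7 scales of each single gene, 43 members were below 1 in all, ANLN was above 1 in all, and INCENP, MAD2L1, BUB3 and TTK changed side.

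The counts of all genes depended on the filter. The 4240 lower and 3583 higher genes became 785 and 476 with a pseudocount of 1 FPKM, 855 and 489 with at least 1 FPKM in both libraries, 1261 and 765 with at least 100 expected counts, and 376 and 220 with at least 2000, the last chosen after seeing the data. They were 16 and 7 with rlog values, 6556 and 6005 at the smaller threshold, and 2384 and 2088 at a threshold of 2. The median log2 ratio of all genes lay between -0.04 and 0.02 under every scaling. For the differences between scales, the cause was not tested.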

Other observations

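The 2 members with the lowest FPKM ratios, KIF20A and CDC25C, lie near each other on chromosome 5 (GRCh38, GENCODE release 44), KIF20A at chr5:138178719-138187723 on the plus strand and CDC25C at chr5:138285269-138338355 on the minus strand. Their 3 neighbours with at least 100 expected counts had ratios nearer to 1, BRD8 below it and CDC23 and FAM53C above it. BRD8, a bromodomain gene on the minus strand that overlaps the beginning of KIF20A, had 35.5 FPKM with DMSO and 24.9 with FIN56, a ratio of 0.702 with a count ratio of 0.670 (counting interval 0.641 to 0.700). CDC23, an anaphase-promoting complex subunit whose end overlaps that of KIF20A on the other strand, had 26.8 and 28.6 FPKM, a ratio of 1.07 with a count ratio of 1.06 (1.02 to 1.097). FAM53C, which overlaps the beginning of CDC25C, had 12.3 and 14.0 FPKM, a ratio of 1.14 with a count ratio of 1.12 (1.07 to 1.18). The pair was chosen after its values were seen.

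Of the 147 genes outside the lists with a CHR or variant and 2 or more CCAAT matches, the lowest and highest were far apart. PRR11 had a count ratio of 0.478 (0.464 to 0.492). CCNF, or cyclin F, which was named after its value was seen, had 10.6 FPKM with DMSO and 6.49 with FIN56, a ratio of 0.613. The histone gene H2BC5 was the highest, at 20.2 and 60.0 FPKM, a ratio of 2.98 with a count ratio of 3.02 (2.81 to 3.25).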
